A study of Homo sapiens with 2 samples.

Results

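MKI67, CENPF, NCAPD2 and STMN1 are 4 genes of mitosis whose transcripts appeared in a list of peaks from RNA immunoprecipitation followed by sequencing (RIP-seq) of ARP1 cells, an established line of human multiple myeloma. They were chosen by gene symbol from the 199 genes with both a symbol and a peak, and each had a single peak, so that they account for 4 of the 236 distinct peaks. The choice was made with the peaks' reads known. Their reads and ratios are therefore given as a description, without a test. Being chosen by name, they had no threshold to pass beyond entry to the list itself, in which the smallest IP count of a peak was 11.

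The series holds 1 library of RNA recovered from ARP1 cells with an antibody to SFRS8 (the IP library), a splicing regulator also called SFSWAP, and 1 library of input RNA made without antibody. The labels' protocol text also speaks of an antibody to N6-methyladenosine, and whether that step was part of these libraries is unclear. The list gives raw reads per peak in an unprefixed column and in a column prefixed CTL. These were read as IP and input (control) reads, which the header does not state. Every order by IP reads over control reads would turn over if the columns were exchanged. ARP1 is a single cell line, and with 1 library a group no difference has a replicate check.

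The cell division that these genes serve is known in outline. As a cell enters mitosis, the condensin complexes compact its chromosomes, the perichromosomal layer coats them, kinetochores assemble on the centromeres, and microtubules are rebuilt into a spindle. Many of the genes involved are transcribed mainly late in the cell cycle, and in myeloma their expression marks dividing plasma cells. NCAPD2 encodes a HEAT-repeat subunit of condensin I. MKI67 encodes Ki-67, the proliferation marker that forms part of the coat of mitotic chromosomes. CENPF encodes a large coiled-coil protein of the kinetochore, and STMN1 encodes stathmin, which destabilises microtubules and is switched off by phosphorylation when the spindle forms. In the annotation deposited with the peaks, all 4 genes carried the term cell cycle, as did 31 genes of the list in all. Only NCAPD2 among the 4 carried mitotic chromosome condensation, so by this annotation condensation describes that gene alone.

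The 4 peaks differed widely in their reads. MKI67 and NCAPD2 had more IP reads per control read than the median peak, and CENPF and STMN1 had fewer. The MKI67 peak held 204 IP reads and 450 control reads, the NCAPD2 peak 25 and 79, the STMN1 peak 37 and 367, and the CENPF peak 48 and 478. MKI67 stood high in the IP library, at rank 9 of 236 by IP reads against rank 59 by control reads. CENPF had slightly more control reads than MKI67 and far fewer IP reads. Over the whole list the medians were 21.5 reads in the IP and 145 in the control, and the smallest IP count of a peak was 11.

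**Figure D1:**
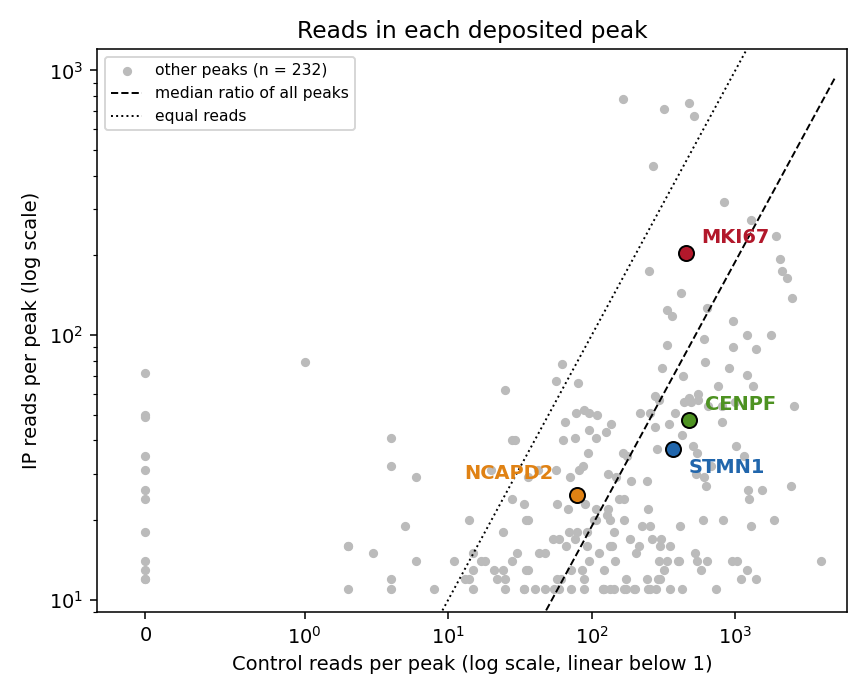
Each point is a deposited peak, with its control reads on the x axis (log scale, linear below 1) and its IP reads on the y axis (log scale). The dashed line marks the median ratio of 0.190 and the dotted line equal reads. MKI67 and NCAPD2 lie above the dashed line and CENPF and STMN1 below it, and all 4 lie below the line of equal reads.

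Peaks were ordered by their IP reads divided by their control reads, the ratio. The depth of the libraries is unknown, so a ratio under 1 is no sign of depletion and only the place among other peaks can be read. Intervals are exact Clopper-Pearson 95% intervals of the split of reads, and cover counting error only, since copies made by PCR cannot be told from separate molecules. The ratio was 0.453 (0.382 to 0.536) for MKI67, 0.316 (0.193 to 0.502) for NCAPD2, 0.101 (0.0699 to 0.142) for STMN1 and 0.100 (0.0730 to 0.135) for CENPF. Set against the median of 0.190 over all peaks, the MKI67 ratio was 2.39 times as high (2.02 to 2.83) and that of NCAPD2 1.67 times (1.02 to 2.65), while STMN1 stood at 0.532 of it (0.368 to 0.747) and CENPF at 0.530 (0.385 to 0.714). The interval lay wholly above the median for MKI67 and NCAPD2, as it did for 36.4% of all peaks, and wholly below it for STMN1 and CENPF, as it did for 40.3% of all peaks. None of the 4 had more IP than control reads, against 16.1% of all peaks.

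Among the 4 ratios, MKI67 exceeded NCAPD2 by a factor of 1.43, with an exact conditional 95% interval of 0.873 to 2.42, so these neighbours did not differ beyond counting error. NCAPD2 exceeded STMN1 by a factor of 3.14 (1.70 to 5.69). STMN1 and CENPF differed by a factor of 1.004 (0.622 to 1.61). Between the ends of the order, MKI67 over CENPF came to 4.51 (3.19 to 6.48). These quotients do not depend on depth, because each compares peaks of the same libraries.

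**Figure D2:**
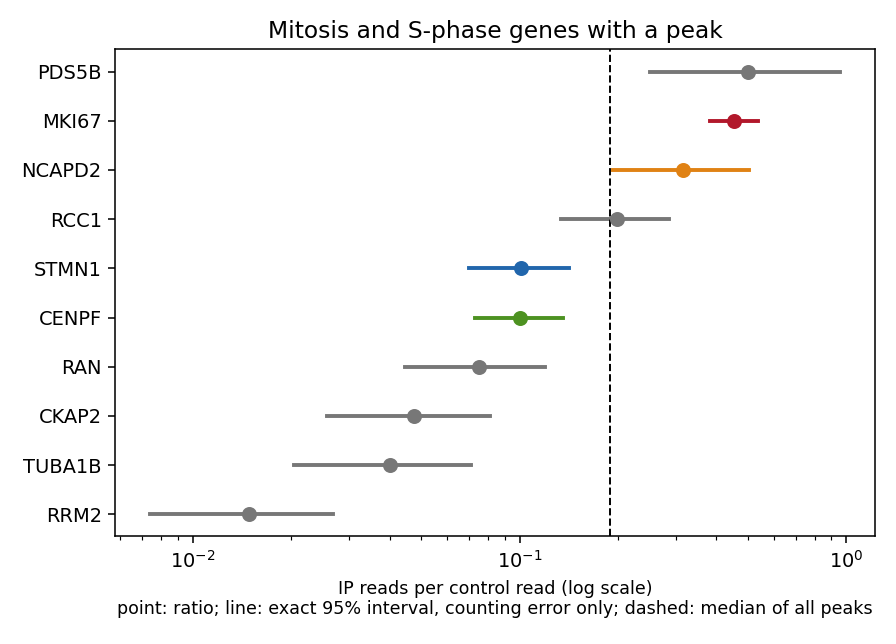
Points give the ratio on a log axis for the 10 genes of 8 lists of mitosis and S-phase genes that had a peak, lines give the exact 95% interval, and the dashed line is the median of all peaks. The coloured genes are the 4 described here. MKI67 (0.453) and NCAPD2 (0.316) lie to the right of the line, STMN1 (0.101) and CENPF (0.100) to the left.

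Taken as a set, the 4 genes lay close to the middle of the list. Their median ratio was 0.209 beside 0.190 for all peaks, with 2 of the 4 above that median, as were 50% of all peaks. Their summed ratio was 0.229 (0.202 to 0.259), from 314 IP and 1374 control reads, against 0.138 (0.136 to 0.141) for the reads of all peaks. MKI67 supplied 65.0% of the IP reads of the 4 and 32.8% of their control reads. Without MKI67, left out with its value known, the summed ratio of the other 3 was 0.119 (0.0968 to 0.145). The intervals of summed ratios treat the pooled reads as a single split. The genes' own ratios differed, with NCAPD2 exceeding STMN1 by a factor of 3.14 (1.70 to 5.69). The pooled intervals therefore do not cover the spread between genes, and nothing is read from how they lie against the value for all peaks. The peak of MKI67 alone took 1.69% (1.47 to 1.94) of the IP reads in all peaks and 0.516% (0.469 to 0.565) of the control reads in all peaks.

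The place of a ratio also depended on how many control reads a peak had. Since the smallest IP count in the list was 11, few control reads in a peak precluded a low ratio. The lowest ratio that this minimum allows was 0.139 for the control reads of NCAPD2, but 0.0300 for STMN1, 0.0244 for MKI67 and 0.0230 for CENPF. The peaks were therefore also compared with those having between 0.5 and 2 times as many control reads. Of the 69 peaks in this range for MKI67, its own included, with a median ratio of 0.0839, 5 had a higher ratio than MKI67. These were 3 peaks over ribosomal RNA genes of chromosome 21 and the peaks of HIST1H1E, a linker histone gene (2.23, 1.95 to 2.55), and ITGB7, a lymphocyte integrin gene (0.699, 0.572 to 0.852), all named after their values were seen.

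CENPF and STMN1 were not low in that company. Of the 71 peaks around CENPF, 30 had a higher ratio and the median was 0.0830. For STMN1 the count was also 30 of 71, with a median of 0.0848. Both medians lay within the intervals of the genes' own ratios. Among the 66 peaks around NCAPD2 the median was 0.229, inside the interval of NCAPD2, and 24 peaks were higher. The placing of CENPF and STMN1 below the median of the whole list, and of NCAPD2 above it, therefore did not exceed counting error among peaks of similar control reads. MKI67 stood high in both comparisons.

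**Figure D3:**
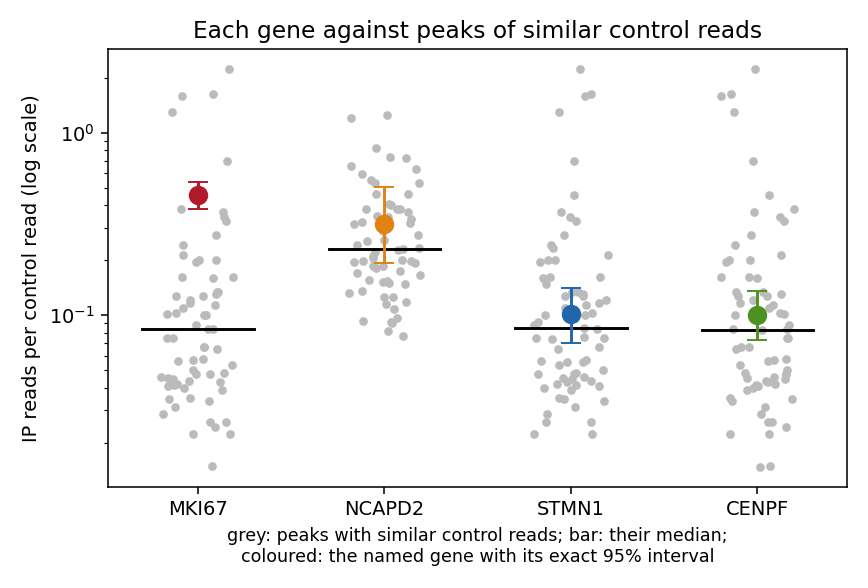
For each gene, grey points are the ratios (log axis) of the other peaks with 0.5 to 2 times its control reads, the black bar is the median including the gene's own peak, and the coloured point is the gene with its exact 95% interval. MKI67 lies far above its median of 0.0839, while the intervals of NCAPD2, STMN1 and CENPF include their medians of 0.229, 0.0848 and 0.0830.

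Per length, the order of the genes was different in each library. Reads per kilobase of peak are given with exact Poisson 95% intervals and are not scaled to depth, so they compare genes within a library only. In the control library STMN1 had 417 reads per kb (375 to 462), CENPF 70.8 (64.6 to 77.5), MKI67 60.8 (55.3 to 66.7) and NCAPD2 49.7 (39.3 to 61.9). The density over STMN1 was thus 5.89 times that over CENPF. Widths are genomic and the share of exon in each peak was not determined, so a density is not an RNA level. The intervals of CENPF and MKI67 overlapped, as did those of MKI67 and NCAPD2, and the other 3 lay near the median of all peaks, 62.8 control reads per kb. In the IP library STMN1 again led with 42.0 reads per kb (29.6 to 58.0), followed by MKI67 with 27.6 (23.9 to 31.6), NCAPD2 with 15.7 (10.2 to 23.2) and CENPF with 7.11 (5.24 to 9.43), beside a median of 16.1 over all peaks. Peak width cancels between the libraries, so comparing these densities across them only restates the ratios. CENPF and STMN1 shared a ratio, and their densities differed nearly equally in both libraries, 5.91 times in the IP and 5.89 times in the control. MKI67 and CENPF differed in ratio. Their control densities were within a factor of 1.16 of each other and their IP densities were a factor of 3.88 apart.

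**Figure D4:**
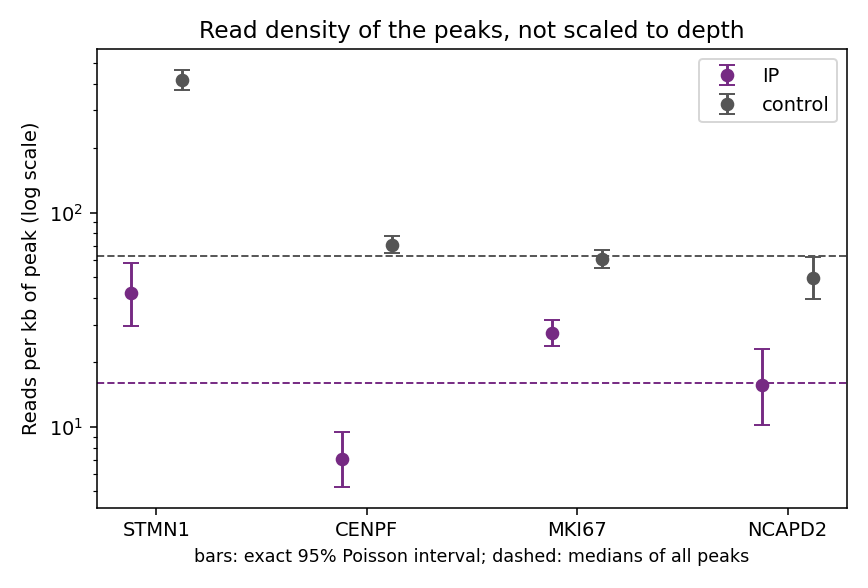
Reads per kb of peak (log axis) in the IP library and in the control library for the 4 genes, with exact 95% Poisson intervals as bars and the medians of all peaks, 16.1 and 62.8, as dashed lines. STMN1 is highest in both libraries, and CENPF is lowest in the IP library while its control density lies just above the median.

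All 4 peaks lay wholly inside their gene on the gene's own strand, none at its start. Positions are on GRCh38, gene spans are those of the deposited list, and places are given for the centre of the peak as a percentage of the gene's length from its start, introns included. Exon positions were not used here. Peak edges in the list fall on a regular grid whose step differs by chromosome and strand, so distances are no finer than that step. The MKI67 peak (ENSG00000148773, minus strand) ran over 7400 bases at chr10:128102401-128109800, began 16585 bases after the gene's start and ended 5742 bases before its end. Its centre lay at 68.2% of the gene, and the peak took up 24.9% of it. MKI67 is known for a single very long internal exon that encodes the Ki-67 repeats, and whether the peak coincides with that exon was not tested. The CENPF peak (ENSG00000117724, plus strand) ran over 6750 bases at chr1:214640501-214647250, began 37306 bases from the start, and was centred at 66.3%, with 11.0% of the gene.

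The peaks of NCAPD2 and STMN1 were shorter and, by the gene spans of the list, lay farther towards the 5′ end. The NCAPD2 peak (ENSG00000010292, plus strand) covered 1590 bases at chr12:6510521-6512110, 17165 bases from the start, and was centred at 46.5% of the gene. The STMN1 peak (ENSG00000117632, minus strand) covered 880 bases at chr1:25900821-25901700. It began 5291 bases from the start, was centred at 25.1% and left 16640 bases to the end of the gene. Over the 209 peaks of protein-coding genes the median place was 80.5%, so that by these spans all 4 centres lay nearer the 5′ end than the median. Of the 209, 191 had a higher place than that of STMN1. Some of the 209 centres lay outside their gene, with places from -432% to 580%, so this median and count are not confined to places within a gene. The gene span of STMN1 joins all of its annotated transcripts, and which transcript the reads came from was not determined. Its place of 25.1% and the count of 191 therefore hold for that span only. In a transcript that ends earlier the same peak could lie near the 3′ end.

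**Figure D5:**
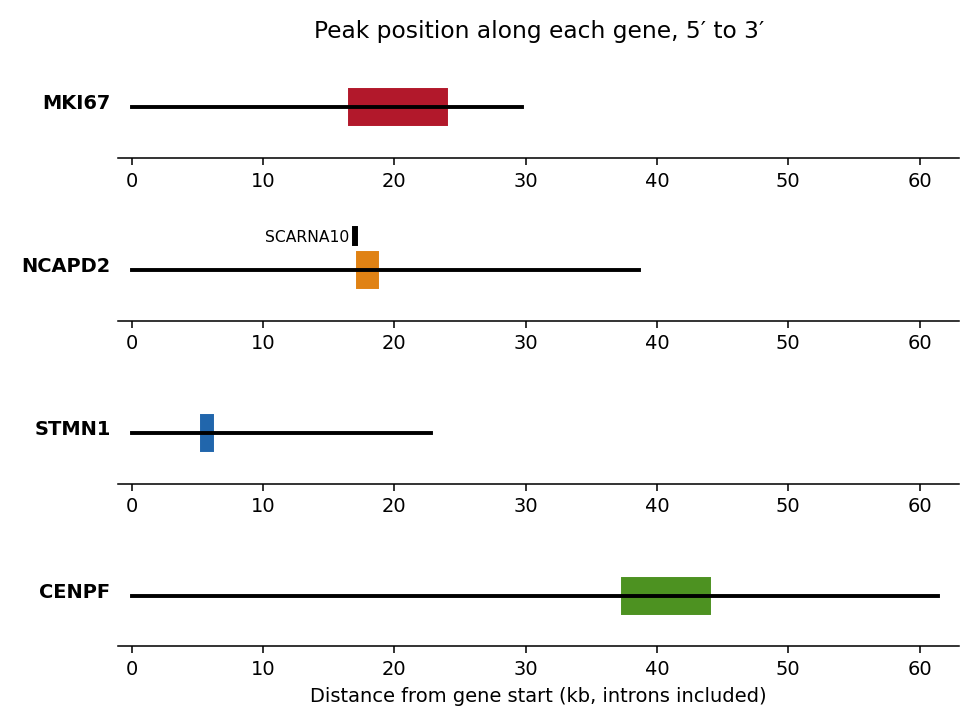
Each line is a gene drawn from its start in kb with introns included, and the coloured box is its peak. The black box above NCAPD2 is SCARNA10, which touches only the 5′ edge of the peak as listed. The MKI67 and CENPF peaks are the widest, at 7400 and 6750 bases.

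A small Cajal body RNA gene lies inside NCAPD2. Small Cajal body RNAs guide the modification of spliceosomal RNAs, and most are cut from introns of host genes. SCARNA10 spans 330 bases, from 6510222 to 6510551 of chromosome 12 in RefSeq, and 31 of them lay in the NCAPD2 peak, 1.95% of its 1590 bases. The deposited list names a second, unnamed gene for this peak, ENSG00000276232, which it types as sense intronic. That model, from 6510275 to 6510522, lies inside the RefSeq span of SCARNA10 and shares 2 bases with the peak. As listed, the peak begins at the edge of the small RNA gene nearer the 3′ end of NCAPD2. It runs almost wholly downstream of SCARNA10. Peak edges lie on a grid coarser than these overlaps, so how far the reads extend over SCARNA10 is not resolved. The peak's 25 IP and 79 control reads cannot be divided between SCARNA10 and NCAPD2 from the counts per peak. No other gene of the RefSeq table overlapped any of the 4 peaks. The next peak on the same strand, over the glycolytic gene GAPDH, began 24645 bases downstream and had 175 IP and 2121 control reads (0.0825, 0.0703 to 0.0963).

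The promoters of the 4 genes were searched for short motifs known from cell cycle genes. None of the peaks touched the promoters, so the RNA reads say nothing of these motifs. Many genes of G2 and M phase carry a cell cycle homology element, commonly with the letters TTTGAA, and CCAAT boxes bound by NF-Y. Both motifs were searched on both strands in RefSeq promoters (GRCh38.p14) of 300 bases, 250 before to 50 after the start. TTTGAA was found for MKI67, CENPF and NCAPD2 and in none of the 3 promoters of STMN1. By promoter this was 3 of the 6 promoters of the 4 genes, as against 15.2% of 35116 promoters. CCAAT was found for all 4 genes, in 1 of the 3 promoters of STMN1. By promoter this was 4 of the 6, as against 34.6% of all promoters. MKI67 has 2 matches to TTTGAA, beginning 47 and 29 bases before the start, of which the nearer shares a base with a CCAAT match in reverse. The matches begin 145 bases before the start in NCAPD2, at base 41 of the transcript in CENPF, and, for CCAAT, 75 bases before the start in STMN1. The search was chosen after these sequences were seen, and a match is a description of letters, not a binding site. The stretches below show the matches in capitals, 5′ to 3′ on the gene's strand.
MKI67, chr10:128126444-128126473, minus strand: gaaTTTGAAtcttcgttttcgTTTGAAttg
CENPF, chr1:214603215-214603244, plus strand: ccggtggcggctgcgggcagTTTGAAttag
NCAPD2, chr12:6493945-6493974, plus strand: cagccgttgagaTTTGAActcggtatttgt
STMN1, chr1:25906477-25906506, minus strand: cgccgctctcggCCAATgcggagccccgcg

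The authors' deposited table also gives a log-odds score and a p-value for each peak, and these ordered the genes differently. The deposited score was 147 for STMN1, 69.2 for MKI67, 57.0 for CENPF and 51.1 for NCAPD2, beside a median of 79.1 over all peaks. STMN1, with a low ratio and the shortest peak, thus had the highest score of the 4, at rank 62 of 236, whereas MKI67 lay at rank 127. In the authors' deposited table the p-value was 0 for STMN1, as for 62 peaks in all, and it was 4.47e-80 for MKI67, 9.21e-36 for CENPF and 1.48e-20 for NCAPD2. How score and p-value were computed is not given in the sources used here, and they rank peaks within this list only.

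Of 138 genes on 8 lists of mitosis and S-phase genes, 10 had a peak (7.25%), the 4 genes included. Of all 20056 protein-coding genes of the RefSeq table, 0.897% had a peak under the same symbol. The lists were chosen with the peaks known, expression of the 128 genes without a peak is unknown, and nothing is read from this difference. Among 11 genes of condensin and the chromosome scaffold, only NCAPD2 and MKI67 had a peak, so no other condensin subunit on the list did. Of 25 centromere and kinetochore genes only CENPF had one, and of 14 mitotic kinases and cyclins and 15 genes of the anaphase-promoting complex none. Of 13 cohesin genes, PDS5B, which encodes a regulator of cohesin's hold on chromatin, had a ratio of 0.5 (0.250 to 0.959) from 15 IP and 30 control reads.

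Among 26 spindle and microtubule genes, CKAP2 and TUBA1B had a peak beside STMN1. CKAP2, a spindle protein gene, had 14 and 294 reads (0.0476, 0.0257 to 0.0812) in a peak of 13020 bases. TUBA1B, an alpha-tubulin gene, had 12 and 300 reads (0.0400, 0.0204 to 0.0709), and alpha-tubulin genes share sequence, so its reads are uncertain. Both ratios were lower than that of STMN1. Of 16 genes of the nuclear envelope and pore, RAN, the GTPase that steers spindle assembly, had 19 and 253 reads (0.0751, 0.0445 to 0.120), and RCC1, its exchange factor, 35 and 176 (0.199, 0.134 to 0.287). The RCC1 peak is also listed with a non-coding gene, and its reads cannot be assigned to one of them. Of 18 genes of DNA replication, RRM2, a subunit of ribonucleotide reductase, had 11 and 739 reads (0.0149, 0.00740 to 0.0268), in a peak of 20475 bases, of which 8264 belonged to RRM2. The median of these 6 other genes was 0.0614 and 2 of them lay above the median of all peaks.

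Genes that carry the wider cell cycle term spanned high and low ratios. The 31 genes with the deposited term cell cycle had a median ratio of 0.153 in their strongest peaks, beside 0.174 over all 199 genes with a symbol. Without the 4 genes the median of the other 27 was also 0.153, with a range from 0.0108 to 0.857, and 13 of the 27 lay above the median of all peaks. By reads in both libraries, the peak most like that of MKI67 was that of MYC, a transcription factor gene, with 144 IP and 420 control reads (0.343, 0.282 to 0.415). The nearest to CENPF was RPL13, a ribosomal protein gene (56 and 493, 0.114), to STMN1 HMGB2, a chromatin protein gene (42 and 422, 0.0995), and to NCAPD2 MZB1, a plasma cell gene (23 and 90, 0.256). Likeness was the distance between log2 reads over the 2 libraries, 0.512 for MYC and 0.223 to 0.272 for the other pairs. MKI67 thus had the most distant nearest neighbour of the 4.

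Of 12 plasma cell markers of the labelled cell line, ITGB7, MZB1, XBP1 and JCHAIN had a peak and 8 did not. By ratio 2 of these 4 lay above the median of all peaks. JCHAIN, with 14 IP and 3971 control reads (0.00353), had the lowest ratio of the list. Of 14 markers of T, myeloid, erythroid and stromal cells, none had a peak. As only 0.897% of all protein-coding genes had a peak, a count of none is uninformative for a list of this size. A peak list gives no expression level for genes without a peak, so the label was checked only to this extent.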

How the data were processed

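The deposited data used were 1 list of 279 rows, a row for each peak and overlapping gene, reduced to 236 distinct peaks by chromosome, start, end and strand. FastQC 0.11.5, HOMER and GRCh38 are named per the submitters' processing notes. The aligner and the peak caller are not given in the sources used here. Values are the deposited raw read counts per peak in each library, the authors' deposited log-odds score and the authors' deposited p-values. Another 2 columns, reads per kilobase in each library, were not used; densities were computed from counts and widths.

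The list holds 12068 IP and 87259 control reads in peaks. Library totals are unknown, so counts were not scaled. Ratios of peaks with 0 control reads used a floor of 3 control reads. With 1 library a group, no test between conditions was made. The intervals of the ratios were checked on data simulated with the same split of reads, for peaks with control reads above 0 (Python 3.11.15, SciPy 1.17.1). Exact intervals reach their coverage under that split by construction, so this checks the computation only. The other intervals were not checked in this way. Small RNA genes and promoters came from RefSeq tables of GRCh38.p14, without regard to strand for gene overlaps.

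Members and lists were chosen with earlier results of these data known. Besides the 4 genes, those named are every gene with a peak on the lists, the nearest peak by reads for each gene, and genes overlapping a peak. Others are said to be named after their values were seen, as is GAPDH, the neighbour of NCAPD2. The alternatives were other sets of peaks, other scalings, other gene spans and the deposited score.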

Additional observations from a re-analysis of the deposited data

How the results depend on the processing

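Of 46 alternative values, 29 stayed close to the main value (within counting error, or for places within the peak), 11 moved and 6 turned to the other side of the middle of the list. Another 12 could not differ (the peak's own edges, and sums over genes with a single peak) and show nothing. Adding 0.5 reads, RefSeq gene spans and naming by overlap moved none. At these counts 0.5 reads could not carry a ratio out of its interval, and the RefSeq spans are nearly those of the list. These alternatives, counted among the 29, therefore show little. The share of peaks with a lower ratio than MKI67, 70.3% in the whole list, became 74.6% among protein-coding peaks, 75.1% outside the ribosomal RNA interval of chromosome 21, 82.2% among peaks with at least 20 control reads, 91.3% among peaks of similar control reads and 83.9% in the better part of the list by deposited adjusted p-value. For STMN1 it moved from 34.3% to 56.3% among peaks of similar control reads and 50.8% in that better part, and for CENPF from 33.9% to 56.3% among peaks of similar control reads. CENPF and NCAPD2 were not in that better part of 118 peaks. These 3 values turned above 50%. By the deposited score all but CENPF turned, and the share was 46.2% for MKI67, 36.4% for NCAPD2 (61.4% by ratio) and 73.7% for STMN1. Scaled by summed reads of all peaks rather than by the median, MKI67 lay at 3.28 and CENPF at 0.726 times the typical value. Scaled by summed reads outside the ribosomal RNA interval, the values were 4.31 for MKI67, 3.01 for NCAPD2, 0.958 for STMN1 and 0.954 for CENPF. The cause of these moves was not tested. No paired analysis was possible because each group has 1 library.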

Other observations

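Other peaks besides that of NCAPD2 overlapped small RNA genes. By RefSeq spans, 4 peaks overlapped a small Cajal body RNA gene, and all 4 had ratios above the median of all peaks, which 50% of peaks do. Beside NCAPD2 (0.316) these were the peaks of EIF1AX over SCARNA9L, with 15 IP and 3 control reads (5, 1.41 to 26.9), of CHD4 over SCARNA11, with 14 and 11 (1.27, 0.537 to 3.10), and of PHB2 over SCARNA12, with 59 and 275 (0.215, 0.159 to 0.285). Whereas 335 of 348 bases of SCARNA9L, 108 of 137 of SCARNA11 and 270 of 270 of SCARNA12 lay in the peak as listed, only 31 of 330 of SCARNA10 did. Strand was ignored in these overlaps. Thus the peaks of NDUFB10 (0.349) and RPS2 (0.0561), on opposite strands, both count over SNORA10 and SNORA64. They cannot both lie on the strand of those genes, and were named after their values were seen. The 14 peaks over small nucleolar RNA genes had a median ratio of 0.0753, from 0.00856 to 0.380. Of the 14, 4 lay above the median of all peaks, NDUFB10 among them. The ratios of NCAPD2 and PHB2 lie inside this range, and the interval of PHB2 includes the median of all peaks. The peaks over small Cajal body RNA genes had a median of 45 control reads and those over small nucleolar RNA genes 917. These groups were formed after the values were seen, and no difference between them was tested.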
